A study of Arabidopsis thaliana with 6 samples.

Results

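Photosystem I and photosystem II are the pigment-protein complexes of the thylakoid membrane that convert light into electron flow. Their cores hold the chlorophylls and redox cofactors, and most core proteins are encoded in the plastid genome, while many peripheral subunits are encoded in the nucleus. Plastid genes are transcribed largely in multi-gene units, so 1 RNA can carry several of the genes described here. In many plants, long phosphate shortage lowers photosynthesis.

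The genes described here are the 9 plastid genes psaA, psaB, psaC, psbA, psbB, psbC, psbD, psbE and psbF, which encode the large, iron-sulfur and cytochrome b559 core subunits of both photosystems. They were taken as the probe sets whose only gene in the platform's gene table is one of these names on the plastid chromosome of Arabidopsis thaliana (TAIR10.1 gene table). Each gene had 1 such probe set, so 9 of the 22810 probe sets are members, and all 9 had a value on every array. They stand among 69 plastid-encoded genes measured under their own name, 60 of which are no members.

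Shoot RNA of 1 line of Brassica oleracea var. alboglabra, A12dH, was measured on Affymetrix ATH1 arrays, which carry Arabidopsis probes. Phosphate was withheld from 3 samples (P-starved), and 3 were nutrient-replete (replete). All plants grew in compost with a 16 h day at 22°C, per the labels, which do not give plant age, the length of starvation or the number of plants per sample. Each name stands for the Arabidopsis gene its probes were designed for. Nothing says that replicates were separate plants, so the p-values measure the spread between these samples alone, and it may be technical. In whole shoots, fewer green cells, fewer plastids per cell and less RNA per plastid cannot be told apart.

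The 6 arrays fall into 2 processing sets by the probe sets they list: the replicate 1 array of each group lists 22810, and the replicate 2 and 3 arrays list 19642. Signals are MAS5 values, a linear probe set brightness, scaled to a 2% trimmed mean of 100 per array. Log2 differences are P-starved minus replete on log2(signal + 16), which hardly compresses signals as bright as these. The main fit (limma) held the processing set as a block and was adjusted over 19578 probe sets by Benjamini-Hochberg. It called 0 probe sets higher and 0 lower at an adjusted p of 0.05, with 530 higher and 627 lower at an unadjusted p under 0.05. Of the shoot markers, 3 of 12 could be read by name (LHCB4.1, PRK and SBPASE), with signals from 588 to 5089, and 2 of 8 root markers (PYK10 and EXPA7) lay between 6.70 and 134. The log2 differences of PRK were -0.62 in replicate 1 and -0.15 in replicates 2 and 3, those of SBPASE -0.54 and -0.26, and those of LHCB4.1 0.14 and 0.24. Both root markers were above 0 in both sets, PYK10 at 0.32 and 0.24 and EXPA7 at 0.18 and 0.10, and the part of these differences in those of the core genes was not tested. None of the 4 flower markers was measured under its name.

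All 9 core genes had a lower signal on the P-starved than on the replete array of replicate 1, where 48% of all tested probe sets did and 52% were higher. On the replicate 2 and 3 arrays 5 of the 9 had a mean log2 difference below 0, and psbA, psbE, psbF and psaC lay above it. Of all 19578 tested probe sets 9025 were below 0 there, and of the other 60 plastid genes 29. With the set as a block 6 core genes were below 0, as were 47.4% of tested probe sets, and 3 above, as were 52.6%. The median log2 difference was -0.19, beside 0.02 over all tested probe sets and -0.34 over the other 60 plastid genes. None passed the threshold in limma, where 0% of tested probe sets were called in either direction. The lowest signal of any core gene was 122, so no core gene was dim on any array.

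**Figure D1:**
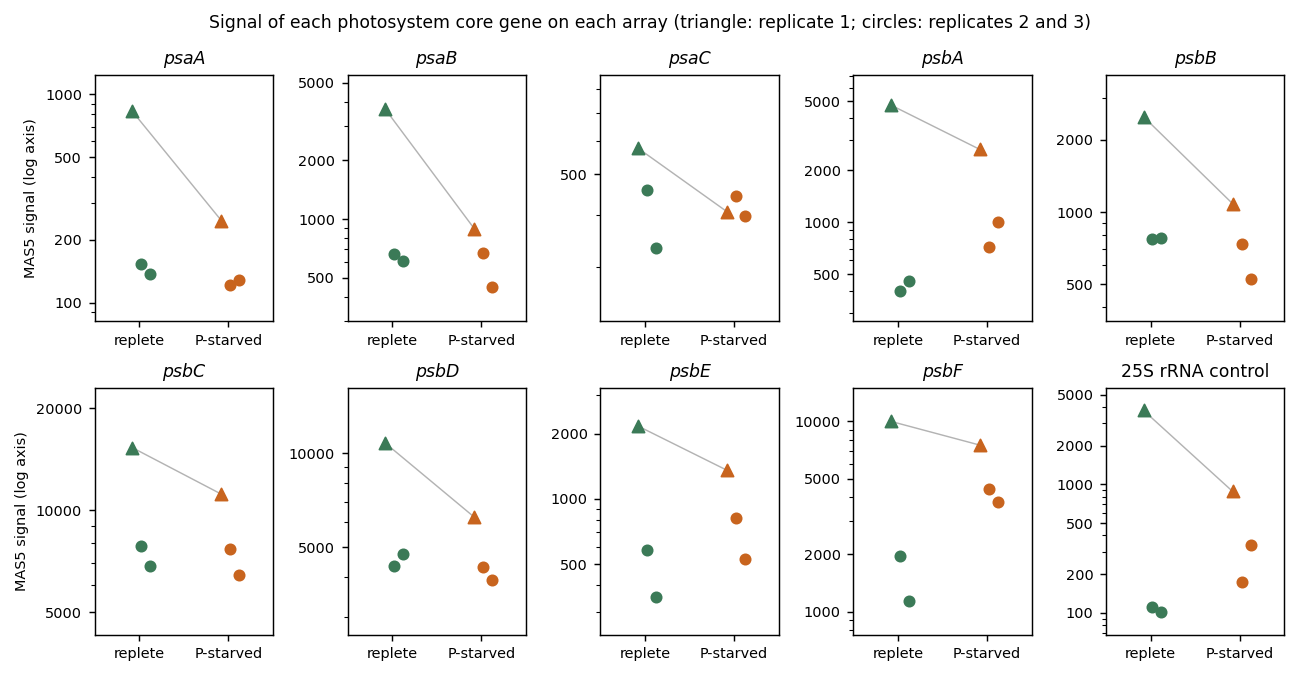
MAS5 signal (log axis, a separate range in each panel) of each core gene and of the 25S rRNA control probe set in replete (green) and P-starved (orange) shoots. Triangles are the replicate 1 arrays, joined by a line, and circles the replicate 2 and 3 arrays. Every line slopes down, while the circles of psbA and psbF stand higher in P-starved shoots and those of psaA, psbB and psbD lower.

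The PSI genes psaA and psaB encode the paired large subunits that bind the reaction centre chlorophylls. The signal of psaA was 829, 153 and 138 on the replete arrays of replicates 1 to 3 and 248, 122 and 129 on the P-starved arrays. Both P-starved arrays of replicates 2 and 3 lay below both replete ones, and the P-starved replicate 1 array lay far below its replete partner. The P-starved signal was 29.9% of the replete one on the replicate 1 arrays, a log2 difference of -1.68, against -0.19 on the others. Over both sets the log2 difference of psaA was -0.69 ± 0.33 (SE), with an adjusted p of 0.788 in limma and a 95% interval of -1.51 to 0.14.

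For psaB the replete signals were 3674, 666 and 611, and the P-starved signals 895, 667 and 448. The groups overlapped on the replicate 2 and 3 arrays by a narrow margin, since P-starved replicate 2 lay just above replete replicate 2. The replicate 1 difference of psaB, -2.02, was the lowest of the 9 core genes, with the P-starved signal at 24.4% of the replete one. On the other arrays it was -0.22, and over both sets -0.82 ± 0.40 (adjusted p 0.788 in limma, interval -1.81 to 0.18).

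The third PSI gene, psaC, encodes the small stromal subunit that carries the terminal iron-sulfur clusters. Its signals were 578, 459 and 334 in replete and 407, 444 and 398 in P-starved shoots, and the groups overlapped on the replicate 2 and 3 arrays. Its log2 difference was -0.49 on the replicate 1 arrays, 0.10 on the others and -0.10 ± 0.20 over both (adjusted p 0.911 in limma, interval -0.60 to 0.41). Among the core genes psaC also differed least between the processing sets, at 0.25 on the log2 scale.

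In photosystem II, psbA encodes D1, the reaction centre protein that is damaged by light and replaced most often, and psbD encodes its partner D2. The psbA signal was 4758, 399.6 and 459 on the replete arrays and 2632, 716 and 1006 on the P-starved arrays. It was thus lower in P-starved shoots on the replicate 1 arrays, at 55.3% of the replete signal, and higher without overlap on the others, where its mean was 2.01 times the replete mean. The log2 differences were -0.85 and 0.96, the second with a 95% interval of 0.37 to 1.55 and an adjusted p of 0.547 in limma on those arrays alone. Over both sets the difference was 0.36 ± 0.40 (adjusted p 0.835 in limma, interval -0.63 to 1.35).

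For psbD the signals were 10779, 4346 and 4738 in replete and 6242, 4328 and 3935 in P-starved shoots. The P-starved arrays were lower without overlap on replicates 2 and 3, though replicate 2 differed between the groups by very little. In replicate 1 the P-starved array was also lower. The replicate 1 arrays gave a difference of -0.79 and the others -0.14, with -0.35 ± 0.18 over both (adjusted p 0.788 in limma, interval -0.79 to 0.09). D1 and D2 form 1 heterodimer, yet on the replicate 2 and 3 arrays the probe set of psbA was higher and that of psbD lower. Whether these 2 genes differed from each other in response was not tested.

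The inner antenna proteins CP47 and CP43, which pass light energy to the D1 and D2 pair, are encoded by psbB and psbC. Replete signals of psbB were 2498, 771 and 778, and P-starved signals 1082, 735 and 524. The groups did not overlap on the replicate 2 and 3 arrays, and the P-starved array was also lower in replicate 1. The replicate 1 arrays gave a psbB difference of -1.19 and the others -0.31. Over both sets it was -0.61 ± 0.24, with an adjusted p of 0.788 and an unadjusted p of 0.046 in limma. This was the only core gene with an unadjusted p under 0.05, where 3.2% of tested probe sets were lower by that measure and 2.71% higher.

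The psbC signals were 15292, 7849 and 6839 in replete and 11145, 7691 and 6438 in P-starved shoots, and the groups overlapped on the replicate 2 and 3 arrays. Its differences were -0.46 on the replicate 1 arrays, -0.06 on the others and -0.19 ± 0.16 over both (adjusted p 0.801 in limma, interval -0.60 to 0.21). The psbD and psbC reading frames overlap in Arabidopsis and share transcripts, so their values are not independent.

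Cytochrome b559, a haem protein needed to assemble photosystem II, is made of the psbE and psbF products. For psbF the signals were 10006, 1972 and 1133 on the replete arrays and 7502, 4399 and 3753 on the P-starved ones. As with psbA, the P-starved array was lower in replicate 1 and both P-starved arrays were higher without overlap in replicates 2 and 3, here 2.63 times the replete mean. Its log2 differences were -0.41 and 1.43, the second with an interval of 0.58 to 2.29 and an adjusted p of 0.537 in limma on those arrays alone. Over both sets the psbF difference was 0.82 ± 0.43 (adjusted p 0.788 in limma, interval -0.26 to 1.90), the furthest above 0 of the 9.

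For psbE the signals were 2169, 583 and 354 in replete and 1355, 819 and 529 in P-starved shoots. The groups overlapped on the replicate 2 and 3 arrays, because P-starved replicate 3 lay below replete replicate 2. The replicate 1 arrays gave psbE a difference of -0.67, the others 0.52, and all together 0.12 ± 0.35 over both (adjusted p 0.937 in limma, interval -0.74 to 0.98).

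On the replicate 2 and 3 arrays, then, 2 of 9 core genes (psbA and psbF) were higher without overlap, where 23.2% of tested probe sets were. Another 3 (psaA, psbB and psbD) were lower without overlap, where 16.1% were. The same 3 were also lower on the replicate 1 arrays, where 1 array per group leaves no overlap to judge. Of tested probe sets 8.59% were lower without overlap on replicates 2 and 3 and also lower in replicate 1. In the same way 0 core genes were higher in both sets, against 12.5% of tested probe sets. On the replicate 1 arrays psaA, psaB and psbB were lower by 2-fold or more, as were 4.89% of tested probe sets and 23 of the 60 other plastid genes. None was higher by that much, against 3.87% of tested probe sets. At an unadjusted p under 0.05 in limma on the replicate 2 and 3 arrays alone, psbA (0.0104) and psbF (0.00929) were higher, with 3.51% of tested probe sets, and no core gene was lower, against 3.79%.

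**Figure D2:**
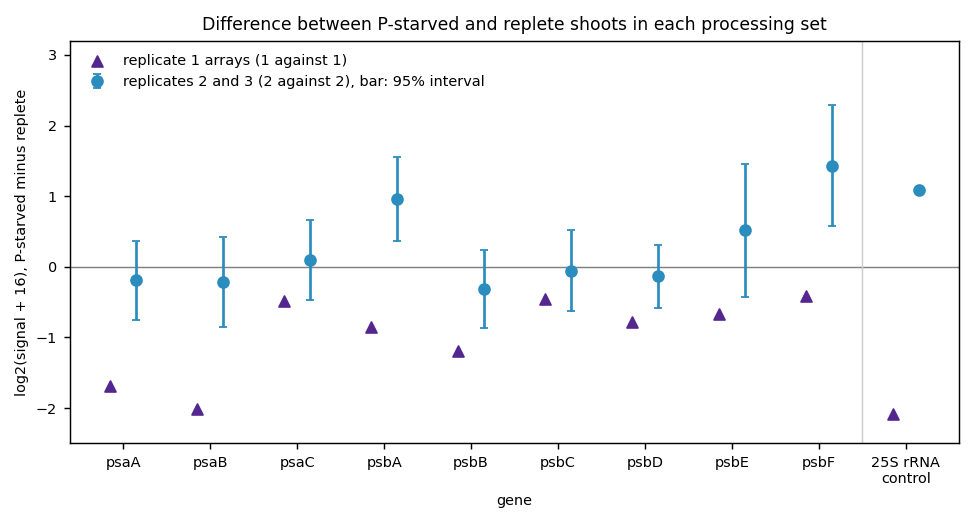
Log2 difference (P-starved minus replete) of each core gene on the replicate 1 arrays (triangles, 1 array against 1) and on the replicate 2 and 3 arrays (circles, 2 against 2, with 95% intervals from limma), with the 25S rRNA control at the right without an interval. All triangles of the core genes lie below 0, from -2.02 to -0.41, and the intervals of psbA and psbF alone lie above 0.

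Whether the group difference itself differed between the processing sets was tested by an interaction term in limma. For all 9 genes the replicate 1 difference was below that of the other arrays, as it was for 52 of the other 60 plastid genes. Of all 19578 tested probe sets this held for 9894. The median gap of the core genes was -1.19 on the log2 scale, beside -0.96 for the other plastid genes and -0.01 over all tested probe sets. The gap was -1.49 ± 0.28 (SE) for psaA, -1.81 ± 0.38 for psbA, -1.80 ± 0.41 for psaB, -1.85 ± 0.55 for psbF and -0.65 ± 0.21 for psbD. These 5 had unadjusted p from 0.0072 to 0.041 in limma, where 5.43% of tested probe sets had such a p in that direction and 4.51% in the other. Of the other 60 plastid genes, 23 had an unadjusted p under 0.05 in that direction and 1 in the other. None of the 9 passed after adjustment, with adjusted p from 0.272 for psaA to 0.767 for psbC, and limma called 0 probe sets (0%) in either direction, with 883 and 1063 at an unadjusted p under 0.05. The gap of psaC was -0.59, with an interval of -1.64 to 0.46. The replicate 1 set holds 1 array per group, which limits this test.

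The 25S ribosomal RNA control probe set differed in the same directions as the means of psbA, psbE, psbF and psaC. These were below 0 in replicate 1 and above 0 in replicates 2 and 3, while psaA, psaB, psbB, psbC and psbD were below 0 in both sets. The control's signal was 3767 on replete and 881 on P-starved replicate 1, and 111 and 101 on replete against 175 and 335 on P-starved replicates 2 and 3. Its log2 difference was -2.08 for replicate 1, 1.09 for replicates 2 and 3, and 0.03 over all arrays (exact permutation p of 1, two-sided, where 3 against 3 cannot go below 0.1). The permutation took no account of the processing sets, whose differences had opposite signs, so it does not show that the groups were alike. The control's part in the differences of the core genes was not tested. The log2 ratio of 3' over 5' signal for the actin, GAPDH and ubiquitin controls, which rises as RNA degrades, differed between the groups by -0.15 to 0.03 in replicate 1, and in replicates 2 and 3 by 0.06 to 0.29.

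Averaged over both groups, the core genes were brighter on the replicate 1 arrays than on the others, by 0.25 to 2.52 on the log2 scale with a median of 1.59, beside 1.05 for the other plastid genes and 0.25 over all tested probe sets. In P-starved shoots psaC was an exception, with replicate 1 (407) between replicates 2 (444) and 3 (398). The gap was widest for psbA, whose replete replicate 1 signal was 11.1 times the mean of replete replicates 2 and 3, against 3.06 times in P-starved shoots. For psbF these ratios were 6.45 and 1.84, and for psaB 5.75 and 1.60. Such a ratio was larger in replete than in P-starved shoots for all 9 core genes, down to psaC with 1.46 against 0.97. This is the same contrast as the gap between the sets given above, not a further result.

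The direction of the core genes was then set against that of the plastid genome as a whole. Of the 60 other plastid genes 58 were below 0 on the replicate 1 arrays, with a median of -0.62, and on the others 31 were above and 29 below, with a median of 0.03. For the core genes the medians were -0.79 and -0.06. When each array's median log2 level of the 69 plastid genes was subtracted, psaA had log2 differences of -0.48 in replicate 1 and -0.31 in replicates 2 and 3, and psaB -0.82 and -0.33. On the same scale psbF had 0.79 and 1.31, psbA 0.35 and 0.84, and psbE 0.53 and 0.40. These 5 genes thus had the same sign in both sets on this scale, but the groups overlapped on replicates 2 and 3 for psaB and psbE, and each had an adjusted p of 0.922 in limma. The other 4 had opposite signs in the sets, with psbC at 0.75 and -0.18, psaC at 0.71 and -0.02, psbD at 0.42 and -0.25 and psbB at 0.01 and -0.43. This subtraction moved the median difference of all tested probe sets to 0.34. Subtracting the median of these genes puts some of them above 0 and some below whatever the spread, and none of the 9 passed on this scale (adjusted p from 0.922 to 0.987 in limma).

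**Figure D3:**
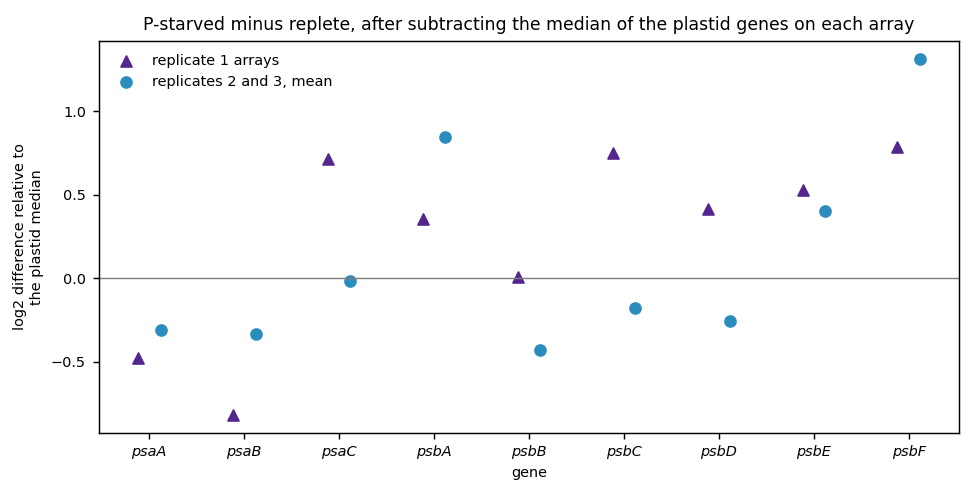
Log2 difference (P-starved minus replete) of each core gene after subtracting the median log2 level of the 69 plastid genes on each array, for the replicate 1 arrays (triangles) and the mean of replicates 2 and 3 (circles). Both marks lie below 0 for psaA and psaB and above 0 for psbA, psbE and psbF.

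**Figure D4:**
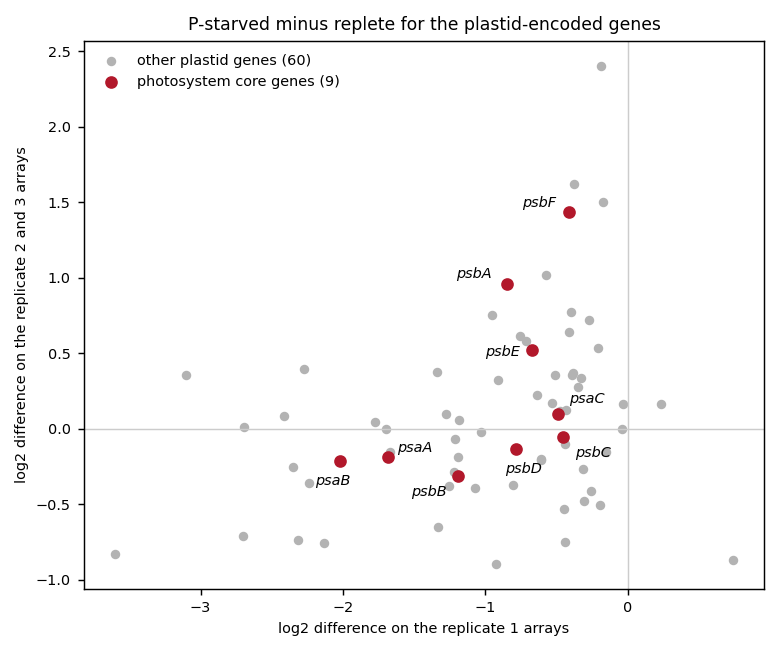
Log2 difference on the replicate 1 arrays (x axis) against that on the replicate 2 and 3 arrays (y axis) for the 9 core genes (red, named) and the other 60 plastid genes (grey). The core genes all lie left of 0, with psaA and psaB furthest left and psbF and psbA highest.

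Neighbouring genes of the transcription units known from Arabidopsis were read beside each core gene. In the unit of psbE, psbF, psbL and psbJ, whose last 2 products are small photosystem II subunits, all 4 genes were below 0 in replicate 1 and above 0 in replicates 2 and 3. There psbL had 0.72 and psbJ 0.62, against 1.43 for psbF and 0.52 for psbE, and the P-starved and replete arrays of psbF, psbL and psbJ did not overlap. On those arrays 23.2% of tested probe sets and 20 of the 69 plastid genes were higher without overlap. In the unit of psaA and psaB, the third gene, rps14, for a plastid ribosomal protein, had -0.39 in replicate 1 and 0.35 in replicates 2 and 3. It thus differed in sign from psaA and psaB on the replicate 2 and 3 arrays. The gene psbZ, for a small photosystem II subunit, had -0.15 in both sets.

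In the unit led by psbB, the small photosystem II subunit gene psbH had -1.67 and -0.15, and psbT -0.91 and 0.32. The cytochrome b6f genes of that unit, petB and petD, had -1.28 and -1.03 in replicate 1 and 0.09 and -0.02 in replicates 2 and 3. All 5 genes of this unit were thus below 0 in replicate 1, as were 67 of the 69 plastid genes. The gene psaC lies among genes of the NADH dehydrogenase-like (NDH) complex. On the replicate 1 arrays ndhH had -2.13, ndhI -2.42 and ndhE -1.78, but ndhA had -0.43, ndhD -0.48 and ndhG 0.23, and psaC with -0.49 was near the last group. On the replicate 2 and 3 arrays ndhH had -0.75, while ndhA, ndhD, ndhE, ndhG and ndhI lay between 0.04 and 0.17, as psaC did. None of these neighbours passed the adjusted threshold in limma.

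**Figure D5:**
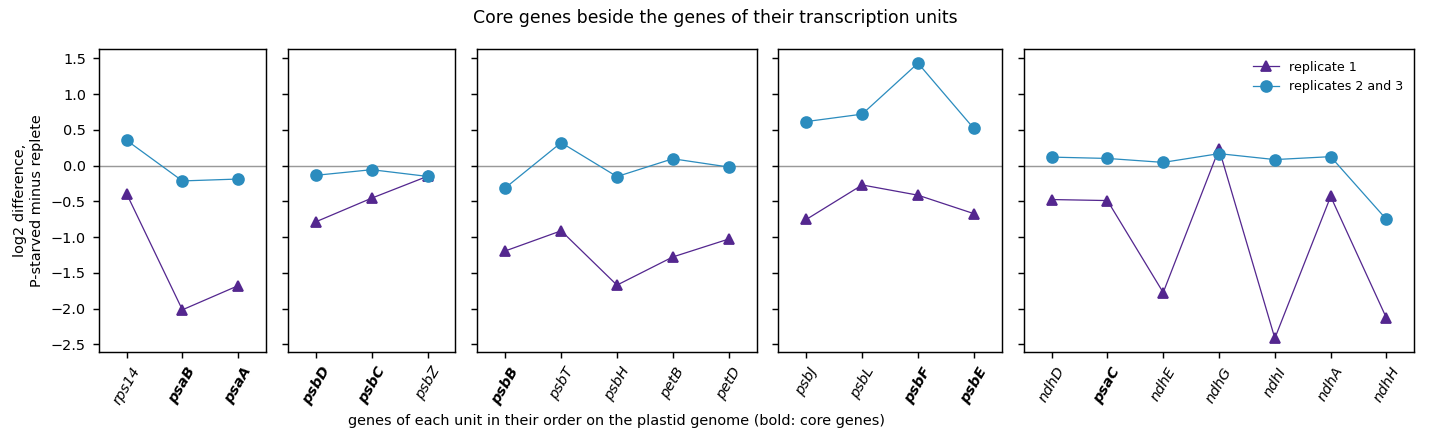
Log2 difference (P-starved minus replete) of the core genes (bold) and the other genes of their transcription units, in their order on the plastid genome, on the replicate 1 arrays (triangles) and on the replicate 2 and 3 arrays (circles). Genes of the psbE unit lie above 0 on the replicate 2 and 3 arrays, and the NDH genes beside psaC scatter widely on the replicate 1 arrays.

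Among the other plastid genes of photosynthesis, the small photosystem subunit genes had 8 of 11 above 0 over both sets, with a median of 0.12. The smallest p among them was that of psbM, at 0.94 ± 0.39 (adjusted p 0.788 in limma). Cytochrome b6f genes had 3 of 6 above 0, with a median of 0.07, and ATP synthase genes 1 of 6, with a median of -0.35. The smallest p of these lists were those of petN, at 0.96 ± 0.42, and atpI, at -0.90 ± 0.14 (each with an adjusted p of 0.788 in limma). For atpI the differences were -0.93 in replicate 1 and -0.89 in replicates 2 and 3. NDH genes had 1 of 10 measured above 0 and a median of -0.46, and ndhH was at -1.21 ± 0.30 (adjusted p 0.788 in limma). The PSI assembly factor genes ycf3 and ycf4 were at -0.20 and -0.52, and rbcL, for the large Rubisco subunit, at -0.06. Genes of the plastid polymerase and ribosome had 15 of 19 below 0 and a median of -0.60. Over all tested probe sets 52.6% were above 0 and 47.4% below, and of the 60 plastid genes outside the core 18 were above and 42 below. In these lists 0 genes passed the adjusted threshold, and 12 of the 60 other plastid genes had an unadjusted p under 0.05 in limma, all lower, where 3.2% of tested probe sets were lower by that measure and 2.71% higher.

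Of 49 nuclear genes that serve the cores as further subunits, transcription, assembly or repair factors, 8 were measured under their name on all arrays, 3 above 0 and 5 below, with a median of -0.05. None passed the threshold. The PSI subunit gene PsaN, at the luminal side of the complex, had -0.23 ± 0.13, and PsaE1, of the stromal side where psaC also lies, had -0.06 ± 0.11. The photosystem II subunit genes PsbY and PsbW had 0.56 ± 0.34 and 0.33 ± 0.24. Both were above 0 on the replicate 2 and 3 arrays alone, at 0.88 and 0.50. The limma intervals there, -0.41 to 2.18 for PsbY and -0.31 to 1.31 for PsbW, both include 0. PsbY was dim there, with signals of 17.2 and 44.6 in replete and 59.8 and 74.5 in P-starved shoots. On the replicate 1 arrays both genes were barely below 0, at -0.09 and -0.02, where 1 array per group leaves no spread to judge. HCF101, needed to assemble the iron-sulfur clusters of photosystem I, had -0.31 ± 0.21. The photosystem II assembly genes PAM68 and LPA2 had 0.11 ± 0.16 and -0.03 ± 0.30. The sigma factors and the proteases and kinases of core repair were not measured under their names.

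By likeness, the mean of the 9 core genes over the 6 arrays, with each processing set's mean subtracted, was compared with 11419 other named probe sets. In replicate 1 this mean stood at 0.48 in replete and -0.48 in P-starved shoots, and on the other 4 arrays it ran from -0.23 (replete replicate 3) to 0.22 (P-starved replicate 2). The 5 highest correlations were those of AT3G52860, AT3G58660, TRM26 (AT2G17550), ycf3 and AT1G60770, with r from 0.996 to 0.998 across 6 arrays that all probe sets share. Of these ycf3 is the plastid gene next to psaA, and its signal was 3236, 482 and 350.2 in replete and 1267, 603 and 482 in P-starved shoots. AT3G52860 was dim, with signals of 3.30 to 15.2. Among other plastid genes rbcL ranked 41 and rps2 ranked 69. The correlations carry no test, since 6 arrays are few for 11419 ranked probe sets. Subtracting the set mean also makes the replicate 1 values of the groups equal and opposite for every probe set. In the core gene mean these values stand furthest from the set mean, so r rests largely on the replicate 1 difference.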

How the data were processed

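The authors deposited 1 linear intensity per probe set, made with MAS5 per the submitters' processing notes. Its version and any masking of probes are not stated there. Each array was rescaled to a 2% trimmed mean of 100 (factors near 1) and log2(signal + 16) was taken. The 64 control probe sets and the 3168 listed on the replicate 1 arrays alone were left out, which left 19578. The fit used limma 3.58.1 in R 4.3.3 (lmFit, eBayes with a trend), with group and processing set as terms, two-sided tests and a threshold of 0.05 after Benjamini-Hochberg adjustment. A further fit added their interaction. The scripts were tested on simulated data. The number of arrays limits the precision.

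Members and lists were chosen with earlier results of these data known. Named genes were all members, their transcription unit neighbours, up to 4 genes per list by smallest unadjusted p, and the 5 most alike in profile. Gene names come from the platform's gene table. Deviations from group means correlated with r = 0.84, 0.55 and 0.53 between arrays of the same replicate number. Different numbers within the replicate 2 and 3 arrays gave 0.52 and 0.53, so the processing sets account for as much. Within those arrays alone the same-number r was 0.02. Alternatives were the group-only fit, the replicate number as a block, other offsets, scalings (the plastid median included) and variance models, brighter probe sets and each array left out. No sequences are shown, and coordinates are left out because the labels name no genome build.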

Additional observations from a re-analysis of the deposited data

How the results depend on the processing

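The group fit called 0 probe sets with offsets of 4 and 64, the deposited scale, scaling over shared probe sets, quantile normalization, the brighter 50%, eBayes without a trend, group as the only term, replicates 2 and 3 alone, and each array left out. The interaction fit called 0 under each alternative it was run with. Relative to the plastid median (counts added after seeing the data), the group fit called 1 probe set, higher in P-starved shoots and no core gene, and the interaction fit 0. With the replicate number as a block (replicate block) the count was also 0, and it changed no call. The members' median log2 difference, -0.19, was -0.79 on the replicate 1 arrays, 0.13 relative to the plastid median, -0.08 after quantile normalization (psbC -0.04, psbD -0.17), and between -0.30 and -0.06 with 1 array left out. The sign of psaC turned to 0.10 on replicates 2 and 3 and to 0.23 relative to the plastid median, and psbC to 0.13 on that scale. On the replicate 1 arrays psbA, psbE and psbF were at -0.85, -0.67 and -0.41. With 1 array left out psbE ran from -0.19 to 0.52, below 0 without replete replicate 3 (-0.19) or P-starved replicate 2 (-0.17). The range of psaC was -0.28 to 0.10, above 0 without either replicate 1 array. The other 7 genes kept their sign, but their sizes depended on single arrays. Without either replicate 1 array psaA was at -0.19, psaB at -0.22, psbB at -0.31, psbC at -0.06, psbD at -0.14, psbA at 0.96 and psbF at 1.43. The value of psbA was 0.05 without P-starved replicate 3 and 0.13 without replete replicate 2, and that of psbF was 0.41 without replete replicate 3. The gap between the sets, relative to the plastid median (chosen after seeing the data), turned to 0.73 for psaC, 0.44 for psbB, 0.92 for psbC, 0.67 for psbD and 0.13 for psbE. The cause was not tested.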

Other observations

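The plastid genes furthest above 0 on the replicate 2 and 3 arrays were chosen after their values were seen. They were petG, petN and psbM, which encode small subunits of the cytochrome b6f complex (petG and petN) and of photosystem II (psbM), ahead of psbF. Their mean P-starved signals there were 6.75, 3.13 and 2.93 times the replete means, without overlap between the groups. The choice itself favours such a gap, and 23.2% of tested probe sets and 20 of the 69 plastid genes were higher without overlap there. In replicate 1 the log2 differences of petG, petN and psbM were -0.19, -0.38 and -0.17. The signal of petG was 305 and 352 on replete and 922 and 3512 on P-starved replicates 2 and 3, so the P-starved arrays also differed widely from each other. LPA1 (AT1G02910), a photosystem II assembly gene, has values in replicate 1 alone, 269 in replete and 196 in P-starved shoots.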
